A study of Mus musculus with 16 samples.

Results

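The genes described here are the semaphorins, plexins, Slits, Robos, netrins and Unc5 receptors, the classical families of guidance cues and their receptors. They were chosen by gene symbol in the array's probe annotation, and 46 of the 18193 genes with a probe set of their own belong to them. They comprise 20 semaphorins, 9 plexins, 3 Slits, 4 Robos, 4 netrins, 2 netrin-Gs and 4 Unc5 receptors, carried by 101 probe sets. Where a gene had several probe sets, the brightest on average stands for it. The symbols Plxna4os1, Slitrk1 to Slitrk6, Unc50 and Unc5cl resemble the family names but do not belong to the families and were left out.

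RNA was measured on 16 Affymetrix mouse arrays, 2 for each of 8 sorted populations of CCE murine embryonic stem (ES) cells that differentiated as embryoid bodies after LIF was withdrawn. The positive populations were HB (VEGF-R2 positive, day 2.5), HP (CD41 positive, day 3.5), AB (CD144 positive, day 3.5) and ET (CD144 positive, day 6.5). The negative populations were NHB (VEGF-R2 negative, day 2.5), NHP (CD41 negative, day 3.5), NAB (CD144 negative, day 3.5) and NET (CD144 negative, day 6.5). HB1 and HB2 name the 2 arrays of HB, and the other arrays are named in the same way. VEGF-R2 is an early marker of mesoderm that can form blood and endothelium, CD41 an early marker of blood progenitors, and CD144 (VE-cadherin) a junction protein of endothelial cells. All populations came from the same ES cell line, the cells were fixed in ethanol and acetic acid before sorting, and a negative population can hold any cell type that lacked the marker. According to the study's methods the duplicates came from separately conducted experiments.

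Semaphorins are secreted or membrane-bound proteins that signal through plexins, and the secreted class 3 semaphorins mostly need a neuropilin as coreceptor. Slits are large secreted proteins that bind Robo receptors. Netrins, leaving the netrin-Gs aside, are secreted, laminin-related proteins that bind Dcc, neogenin and the Unc5 receptors. All of them were first known for steering growing axons, and several also pattern blood vessels in the mouse. Sema3e acts on the plexin Plxnd1 of endothelial cells, Robo4 is a Robo largely restricted to endothelium, and Unc5b is a netrin receptor of sprouting vessels.

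Every value below is a MAS5 signal, a linear measure of a probe set's brightness, brought by the authors to a common trimmed mean of 500. The median of all values was 85.8, and 40 of the 46 members had a mean above it in at least 1 population. Differences are log2 fold changes on the log2(signal + 6) scale from limma, fitted over all probe sets, and "called" means a Benjamini-Hochberg adjusted p under 0.05. Positive and negative populations differed also in their hybridisation control transcripts, whose geometric mean was 6492 to 11186 on the 8 positive and 2146 to 3035 on the 8 negative arrays. A same-day difference between positive and negative cells and a difference between these 2 sets of arrays cannot be told apart. The Spearman coefficient between duplicates was 0.872 to 0.895 for positive populations and 0.945 to 0.955 for negative ones. In sorted bulk RNA, fewer cells of a type and less RNA per cell cannot be told apart either.

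The transcripts of the sorting markers followed the labels. Kdr (VEGF-R2) averaged 5886 in HB and 2083 in NHB, Itga2b (CD41) averaged 6411 in HP and 211 in NHP, and Cdh5 (CD144) averaged 1974 in AB, 29.4 in NAB, 2692 in ET and 34.1 in NET. Markers of other cell types were also present. The summed signal of 8 vessel endothelial markers was 8891 to 14031 in HP and 11330 to 12793 in AB. AB had a summed signal of 22607 to 25475 for 6 pluripotency markers, ET one of 21816 to 24226 for 7 blood markers and of 19347 to 20386 for 6 smooth muscle and mesenchyme markers. Negative cells carried such signal too. The pluripotency sum was 19235 to 21256 in NAB. In NET the blood sum was 18436 to 20827 and the smooth muscle and mesenchyme sum 7418 to 8294. The part of these cells in the results was not tested.

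Between the sorts of 1 day, guidance genes were called in both directions, and fewer of them were higher than lower in the positive cells. In HP against NHP, 8 of the 46 members were higher and 18 lower, where 19.2% and 17.2% of all 18193 genes were. In HB against NHB, 8 were higher and 10 lower, beside 16% and 13.7% of all genes. In AB against NAB, 5 were higher and 9 lower, beside 13.7% and 10.3%. In ET against NET, 5 were higher and 11 lower, beside 13.4% and 11.9%. Summed cell type markers moved with these contrasts. The summed pluripotency signal was 1643 to 4600 in HP and 37318 to 40055 in NHP, with all 6 markers called lower, and the neuroectoderm sum 726 to 1646 in HP and 6792 to 7062 in NHP, with 4 of 8 called lower. The pluripotency sum was 7834 to 8130 in HB and 23205 to 23221 in NHB, with 4 of 6 called lower. The early mesoderm sum was 6032 to 6639 in AB and 18411 to 19153 in NAB, with 5 of 6 called lower and 1 higher. The 8 vessel endothelial markers, of the cell type that CD144 marks, summed to 24558 to 25483 in ET and 506 to 565 in NET, and all were called higher. The pluripotency sum was 11773 to 12740 in ET and 18920 to 18950 in NET. The smooth muscle and mesenchyme sum was 19347 to 20386 in ET and 7418 to 8294 in NET. The part of those cells in the members' calls was not tested. The shares of members that were higher, 17.4%, 17.4%, 10.9% and 10.9% in day order, lay near those of all genes. The shares that were lower were 21.7%, 39.1%, 19.6% and 23.9%. The median log2 fold change of the members was -0.08 in HB, -0.22 in HP, -0.23 in AB and -0.41 in ET, each against its negative cells, and that of all genes 0.16, 0.18, 0.17 and 0.14. These splits of all called probe sets moved with the scaling: 47.4% of them were higher in AB and 48.3% in ET, and 33.0% and 36.4% when each array was centred on its median. The members then split 5 to 11 in AB and 4 to 11 in ET.

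**Figure D1:**
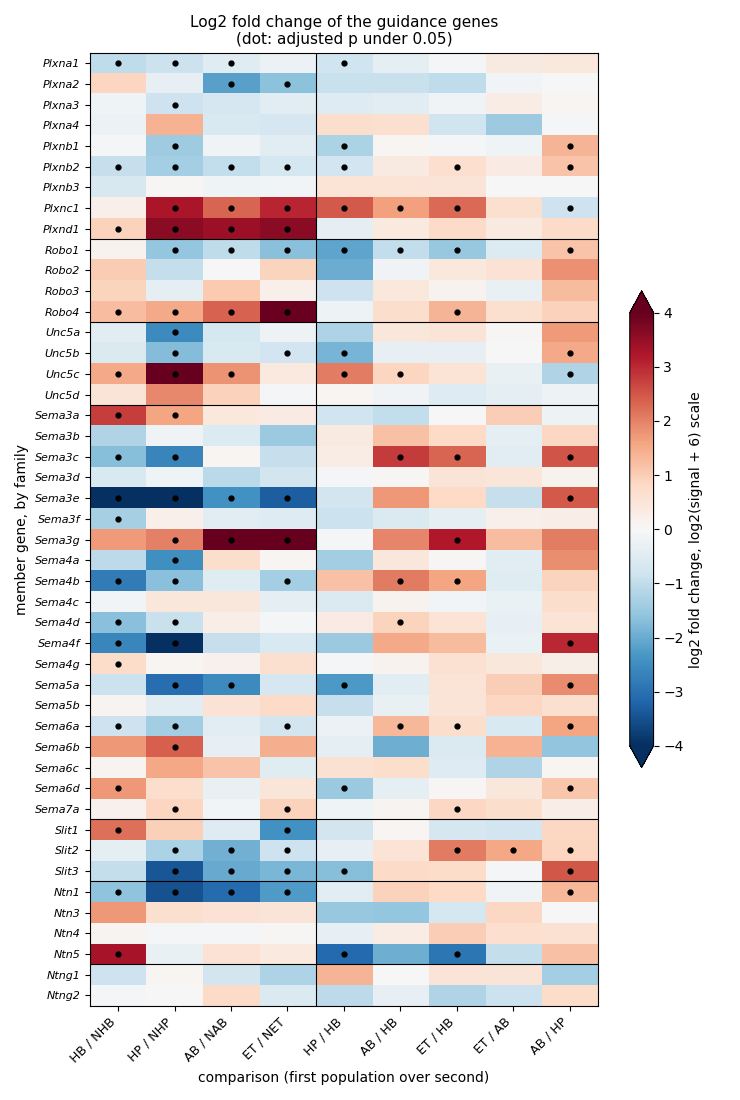
Log2 fold changes of the 46 guidance genes, 1 row per gene grouped by family, in 4 comparisons of positive with negative cells of 1 day (left of the vertical line) and 5 comparisons among positive populations, the first named population over the second. Red is higher and blue lower in the first population, a black dot marks an adjusted p under 0.05, and colours saturate at 4 in either direction; Plxnd1, Plxnc1, Unc5c, Robo4 and Sema3g are among the rows that are red, and Ntn1, Sema3e and Slit3 among those that are blue, in all 4 same-day columns.

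Promoter letters are shown for a pair of members called higher and a pair called lower in positive cells, chosen after their values were seen. Sema3g, a secreted semaphorin, was higher in HP, AB and ET than in the negative cells of the day, and Unc5c, a netrin receptor, in HB, HP and AB. Sema3e, a secreted semaphorin, was lower in the positive cells of every day, and Slit3, a Robo ligand, in HP, AB and ET. The letters are the 250 bases before the annotated start in RefSeq (GRCm38.p6), which held a window for 38 of the 46 members. For these 4 genes that start is also the first base of the gene as listed. For Plxnd1 and Robo4, likewise higher in HP, AB and ET, the annotated start of the window lies 334 and 70 bases inside the listed gene, and their windows are not printed. All 4 windows lie on the plus strand, for Sema3g at chr14:31217623-31217872, for Unc5c at chr3:141465314-141465563, for Sema3e at chr5:14025026-14025275 and for Slit3 at chr11:35121206-35121455. Capitals mark matches on either strand to the ETS core motifs CAGGAA and CCGGAA, the GATA motif AGATAA and the GC box GGGCGG.

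Sema3g: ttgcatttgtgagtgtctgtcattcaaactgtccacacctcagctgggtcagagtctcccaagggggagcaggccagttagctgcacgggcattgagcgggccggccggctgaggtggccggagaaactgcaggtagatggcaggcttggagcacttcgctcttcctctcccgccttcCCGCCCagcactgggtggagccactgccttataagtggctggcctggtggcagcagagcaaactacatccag
Unc5c: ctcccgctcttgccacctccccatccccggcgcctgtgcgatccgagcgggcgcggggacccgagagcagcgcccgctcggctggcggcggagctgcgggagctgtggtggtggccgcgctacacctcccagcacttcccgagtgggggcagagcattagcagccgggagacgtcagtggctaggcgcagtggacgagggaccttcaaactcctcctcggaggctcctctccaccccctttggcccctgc
Sema3e: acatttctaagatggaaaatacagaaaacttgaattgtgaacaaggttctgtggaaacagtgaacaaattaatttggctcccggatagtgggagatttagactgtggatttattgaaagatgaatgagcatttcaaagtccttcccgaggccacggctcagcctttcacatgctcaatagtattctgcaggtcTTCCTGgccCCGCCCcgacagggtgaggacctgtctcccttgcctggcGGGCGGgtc
Slit3: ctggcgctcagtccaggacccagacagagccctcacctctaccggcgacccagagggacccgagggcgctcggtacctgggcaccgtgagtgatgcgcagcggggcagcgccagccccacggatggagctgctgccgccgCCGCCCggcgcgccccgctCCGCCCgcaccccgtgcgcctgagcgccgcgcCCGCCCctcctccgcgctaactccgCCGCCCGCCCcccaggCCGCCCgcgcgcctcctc

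The Sema3g window held GGGCGG 1 time and the Unc5c window none of the 4 motifs. The Sema3e window held CAGGAA 1 time and GGGCGG 2 times, and the Slit3 window GGGCGG 6 times, with a pair of matches that overlap. Among 32851 RefSeq windows of this length, 25.7% held CAGGAA, 12% CCGGAA, 9.99% AGATAA and 32.7% GGGCGG. A match describes the letters and does not show a bound site.

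By the probe set that stands for each gene, Plxnd1 and Plxnc1 were the plexins called higher in positive cells. Plxnd1, the receptor of Sema3e, had signals of 1369.7 and 1948 in HB, 889 and 1758 in HP, 2317 and 1995 in AB, and 2882 and 2683 in ET. In the negative cells it had 875 and 835 in NHB, 111 and 83.5 in NHP, 236 and 163 in NAB, and 189.8 and 261 in NET. The gene was thus above the median of all values in all positive populations, and from day 3.5 on the positive arrays lay far above the negative ones with no overlap. Plxnd1 was higher in HP than in NHP (log2 fold change 3.62, SE 0.28, adjusted p = 4.85e-08), in AB than in NAB (log2 fold change 3.41, SE 0.28, adjusted p = 4.17e-07) and in ET than in NET (log2 fold change 3.61, SE 0.28, adjusted p = 2.06e-07). In HB it was higher than in NHB by 0.93 (SE 0.28, adjusted p = 0.021), but this lost its call without HB2 or either NHB array or with a robust prior (adjusted p = 0.0852 to 0.193). No comparison among positive populations called Plxnd1.

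Plxnc1, which encodes the receptor of the membrane-anchored semaphorin Sema7a, had signals of 179 and 241 in HB, 1115 and 1213 in HP, 677 and 641 in AB, and 1129 and 941 in ET. Across the negative populations the signals were 173 and 183 in NHB, 109 and 124 in NHP, 122 and 129.8 in NAB, and 132 and 110.4 in NET. HB lay close to the negative cells, and all 6 arrays of HP, AB and ET lay above every other array. Plxnc1 was higher in HP than in NHP (log2 fold change 3.26, SE 0.22, adjusted p = 1.43e-08), in AB than in NAB (log2 fold change 2.33, SE 0.22, adjusted p = 2.36e-06) and in ET than in NET (log2 fold change 3.03, SE 0.22, adjusted p = 1.37e-07). The later positive populations also stood above HB, by 2.45 (SE 0.22, adjusted p = 1.84e-06) in HP, 1.64 (SE 0.22, adjusted p = 0.00022) in AB and 2.28 (SE 0.22, adjusted p = 3.86e-06) in ET. One other probe set of the gene went the other way in AB against NAB, with a log2 fold change of -2.24 (adjusted p = 0.036), while a further one was higher by 1.57 (adjusted p = 0.00594).

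**Figure D2:**
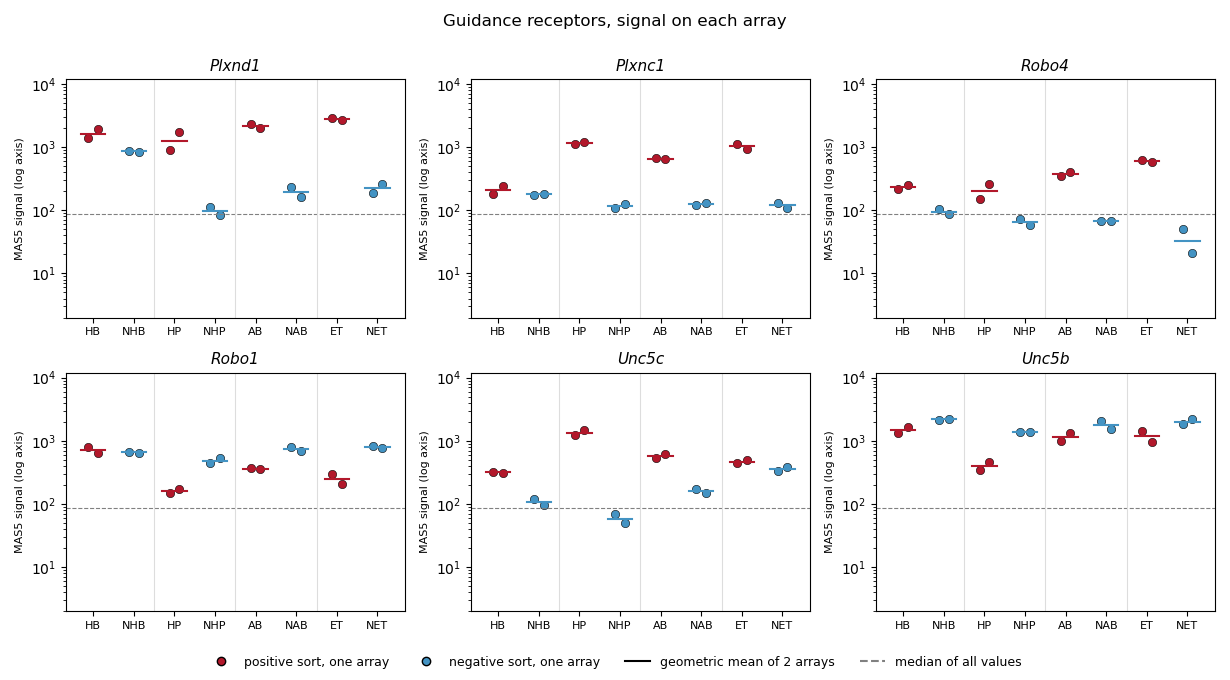
MAS5 signal (log axis) of 6 guidance receptors on each array, with the populations on the horizontal axis and each positive population (red) left of the negative population (blue) of its day. Points are arrays, short lines geometric means of the 2 arrays, and the dashed line the median of all values, 85.8; Plxnd1, Plxnc1 and Robo4 stand above their negative cells from day 3.5 on, Unc5c is highest in HP, and Robo1 and Unc5b are lowest in HP.

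Of the A and B plexins, Plxna1, Plxna2, Plxna3, Plxnb1 and Plxnb2 were called between the sorts, each lower in the positive cells of at least 1 population. Plxna2, which binds class 6 semaphorins and, with neuropilins, class 3 ones, had signals of 414 and 181 in HB, 152 and 137 in HP, 119 and 174 in AB, and 135 and 132 in ET. The negative cells had 189 and 116 in NHB, 166 and 204 in NHP, 725 and 608 in NAB, and 405 and 445 in NET. NAB and NET held the high values from day 3.5 on, and AB and ET did not overlap with them. Plxna2 was lower in AB than in NAB (log2 fold change -2.16, SE 0.35, adjusted p = 0.000298) and in ET than in NET (log2 fold change -1.63, SE 0.35, adjusted p = 0.00294). Other probe sets of the gene behaved differently. The first had 351 and 357 in HB and 114 and 118 in NHB. The second had 342 and 393 in HB and 102 and 95.4 in NHB, but 268 and 260 in ET and 252 and 275 in NET. In the remaining set HB, at 97.5 and 11.9, overlapped with NHB, at 48.3 and 32.7.

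Plxna1, a receptor of Sema6d and of class 3 semaphorins, had signals of 709 and 636 in HB, 342 and 423 in HP, 491 and 535 in AB, and 681 and 626 in ET. Signals in the negative populations were 1317 and 1417 in NHB, 719.7 and 676 in NHP, 730.3 and 723 in NAB, and 697 and 839 in NET. It was lower in HB than in NHB (log2 fold change -1.02, SE 0.17, adjusted p = 0.000237) and in HP than in NHP (log2 fold change -0.87, SE 0.17, adjusted p = 0.000687), while the difference in ET against NET, -0.23 (SE 0.17, adjusted p = 0.393), missed the threshold. Its difference in AB against NAB was small, -0.50 (SE 0.17, adjusted p = 0.0429), a call lost without either AB array, either NHB array, either NHP array or either NAB array, under quantile normalization or with a robust prior (adjusted p = 0.0603 to 0.181). In HP against HB it was lower (log2 fold change -0.81, SE 0.17, adjusted p = 0.00404), a call lost with only the compared populations fitted (adjusted p = 0.117).

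Plxnb2, a receptor of class 4 semaphorins, had signals of 509 and 485 in HB, 315 and 265 in HP, 731 and 562 in AB, and 1070.1 and 602 in ET. Among negative cells the values were 981 and 926 in NHB, 789.9 and 698 in NHP, 1341 and 1200.1 in NAB, and 1412 and 1211 in NET. The positive arrays lay below the negative arrays of their day without overlap. The difference was called in HB against NHB (log2 fold change -0.93, SE 0.22, adjusted p = 0.00513), in HP against NHP (log2 fold change -1.34, SE 0.22, adjusted p = 0.000183) and in AB against NAB (log2 fold change -0.98, SE 0.22, adjusted p = 0.00446), the last of these lost without AB2 or NAB1 (adjusted p = 0.0562 to 0.0671). The 2 ET arrays differed from each other, and the difference in ET against NET of -0.70 (SE 0.22, adjusted p = 0.0348) lost its call without ET2, either NHB array or either NET array, with a robust prior or with only the compared populations fitted (adjusted p = 0.0506 to 0.425). Plxnb2 was higher in AB than in HP (log2 fold change 1.13, SE 0.22, adjusted p = 0.00293). In HP against HB it stood at -0.77 (SE 0.22, adjusted p = 0.0353), a call lost without either HB array, either HP array, either NHB array or either NAB array, with a robust prior, with only the compared populations fitted or with only positive arrays fitted (adjusted p = 0.0512 to 0.186). In ET against HB it stood at 0.68 (SE 0.22, adjusted p = 0.0458), a call lost without either HB array, ET1, either NHB array, either NHP array or either NAB array, under quantile normalization, under median centring, with a robust prior, with only the compared populations fitted or with only positive arrays fitted (adjusted p = 0.0599 to 0.469).

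Plxnb1, the receptor of Sema4d, was low in a single population by the probe set that stands for it. Its signals were 407 and 322 in HB, 147 and 144 in HP, 331 and 443 in AB, and 345 and 334 in ET. On the negative arrays it had 411 and 339.9 in NHB, 432 and 369 in NHP, 413 and 429 in NAB, and 385 and 551 in NET. Both HP arrays lay below all the others, which spanned a narrow range. Plxnb1 was lower in HP than in NHP (log2 fold change -1.42, SE 0.23, adjusted p = 0.000175). Plxnb1 was lower in HP than in HB (log2 fold change -1.28, SE 0.23, adjusted p = 0.00161) and higher in AB than in HP (log2 fold change 1.36, SE 0.23, adjusted p = 0.000964). The contrast with HB lost its call with only the compared populations fitted (adjusted p = 0.083) and that with AB was lost with only the compared populations fitted (adjusted p = 0.0583). The gene's other probe set had 340 and 156 in HB, 87.5 and 172 in HP, 370 and 296 in AB, and 253 and 387 in ET. In NHB that set had 470 and 494, in NHP 469 and 406, in NAB 534 and 478, and in NET 583 and 508. Its positive arrays thus lay below the negative arrays of their day in every sort. Plxna3, a semaphorin receptor that pairs with neuropilins, had 252 and 287 in HB, 209.8 and 165 in HP, 219 and 179 in AB, and 237 and 254 in ET. The negative populations gave signals of 338 and 269.6 in NHB, 375 and 305 in NHP, 341 and 303 in NAB, and 336 and 341 in NET. The one call of this probe set, lower in HP than in NHP (log2 fold change -0.84, SE 0.24, adjusted p = 0.0128), was lost without HP2 or NHP1, under quantile normalization or with only the compared populations fitted (adjusted p = 0.0664 to 0.129). The other probe set of Plxna3 had 106 and 50.1 in HB, 53.3 and 11.2 in HP, 87.5 and 52.4 in AB, and 55.5 and 19.5 in ET. In NHB that set had 254 and 262, in NHP 221 and 177, in NAB 248 and 193, and in NET 183 and 111, without overlap on any day.

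Of the Robo receptors, Robo4 was higher and Robo1 lower in positive cells. Robo4 had signals of 214 and 248 in HB, 151 and 260.1 in HP, 351 and 409 in AB, and 614 and 586 in ET. In the negative cells it had 103 and 85.8 in NHB, 73.8 and 57.9 in NHP, 68.4 and 68.1 in NAB, and 50.1 and 21.2 in NET. All 8 positive arrays lay above all 8 negative arrays, which were near or below the median of all values, and ET held the highest values. The gene was higher in AB than in NAB (log2 fold change 2.37, SE 0.38, adjusted p = 0.000291) and in ET than in NET (log2 fold change 3.95, SE 0.38, adjusted p = 2.05e-06). In HP against NHP it was higher by 1.52 (SE 0.38, adjusted p = 0.00591), a call lost without HP2 or NHP2 (adjusted p = 0.0583 to 0.0682). In HB against NHB it was higher by 1.24 (SE 0.38, adjusted p = 0.0244), a call lost without either HB array or either NHB array (adjusted p = 0.0557 to 0.149). ET stood above HB by 1.36 (SE 0.38, adjusted p = 0.0223), a call lost without either HB array or either ET array, under quantile normalization or under median centring (adjusted p = 0.0599 to 0.106).

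Robo1, a widely expressed Slit receptor, had signals of 803 and 642 in HB, 149 and 173 in HP, 370.1 and 352 in AB, and 297 and 205 in ET. Across the negative populations the signals were 671 and 642 in NHB, 440.4 and 529 in NHP, 809 and 678 in NAB, and 821 and 768 in NET. HB matched the negative cells of its day, and the later positive populations lay below theirs without overlap, lowest in HP. The gene was lower in HP than in NHP (log2 fold change -1.55, SE 0.21, adjusted p = 2.52e-05), in AB than in NAB (log2 fold change -1.03, SE 0.21, adjusted p = 0.00204) and in ET than in NET (log2 fold change -1.66, SE 0.21, adjusted p = 2.97e-05). Against HB it was lower in HP (log2 fold change -2.12, SE 0.21, adjusted p = 4.34e-06) and in ET (log2 fold change -1.52, SE 0.21, adjusted p = 9.09e-05). In AB against HB the difference was -0.98 (SE 0.21, adjusted p = 0.00777), a call lost without HB1 or AB2 or with only positive arrays fitted (adjusted p = 0.0605 to 0.0884). AB stood above HP by 1.14 (SE 0.21, adjusted p = 0.00176), a call lost with only the compared populations fitted (adjusted p = 0.103).

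The Unc5 receptors, which bind netrins, differed among themselves. Unc5c had signals of 322 and 314 in HB, 1220.2 and 1472 in HP, 531 and 627 in AB, and 438 and 498 in ET. The negative cells had 119.6 and 97.5 in NHB, 68.7 and 49.99 in NHP, 175 and 148 in NAB, and 329 and 386 in NET. HP was the highest population and NHP the lowest, and in NET the signal had come near that of ET. Unc5c was higher in HB than in NHB (log2 fold change 1.51, SE 0.24, adjusted p = 0.00018), in HP than in NHP (log2 fold change 4.38, SE 0.24, adjusted p = 9.42e-10) and in AB than in NAB (log2 fold change 1.80, SE 0.24, adjusted p = 4.95e-05). ET and NET differed by only 0.39 (SE 0.24, adjusted p = 0.297), which missed the threshold. Unc5c was higher in HP than in HB (log2 fold change 2.05, SE 0.24, adjusted p = 2.17e-05) and lower in AB than in HP (log2 fold change -1.21, SE 0.24, adjusted p = 0.003). In AB against HB it was higher by 0.85 (SE 0.24, adjusted p = 0.0376), a call lost without either HB array, either AB array, either NHB array or either NAB array, under quantile normalization, under median centring, with a robust prior or with only the compared populations fitted (adjusted p = 0.051 to 0.202).

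Unc5b had the opposite course in blood progenitors. Its signals were 1310.5 and 1630.3 in HB, 348 and 458 in HP, 994 and 1336 in AB, and 1429 and 965 in ET. Signals in the negative populations were 2140.2 and 2214 in NHB, 1355 and 1357 in NHP, 2045 and 1521 in NAB, and 1867 and 2181 in NET. Only the HP arrays fell below 500, and the positive arrays lay below the negative arrays of their day. Unc5b was lower in HP than in NHP (log2 fold change -1.75, SE 0.21, adjusted p = 7.35e-06) and than in HB (log2 fold change -1.86, SE 0.21, adjusted p = 1.78e-05), and higher in AB than in HP (log2 fold change 1.52, SE 0.21, adjusted p = 0.000139). The lower level in ET than in NET, -0.78 (SE 0.21, adjusted p = 0.0144), lost its call without ET2 or NET2, with a robust prior or with only the compared populations fitted (adjusted p = 0.0596 to 0.192), and another probe set of the gene was higher there by 1.01 (adjusted p = 0.00802) and in AB than in NAB by 1.42 (adjusted p = 0.000623). In that other probe set HP, at 205 and 318, overlapped with NHP, at 259 and 328, and HB had 820 and 821. Unc5a, a neuronal netrin receptor, was dim, with 11.5 and 82.7 in HB, 13.2 and 8.26 in HP, 15.5 and 128 in AB, and 62.4 and 39.9 in ET. Among negative cells the values were 108 and 19.6 in NHB, 93.1 and 88.3 in NHP, 79.01 and 83.4 in NAB, and 51.99 and 67.1 in NET. Its lower level in HP than in NHP (log2 fold change -2.55, SE 0.90, adjusted p = 0.0414) lost its call without either HP array, either NHP array, either NAB array or either NET array, with an offset of 50 or with a robust prior (adjusted p = 0.0519 to 0.148).

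Among the secreted class 3 semaphorins, Sema3g and Sema3e had opposite patterns. Sema3g, known from arterial endothelium in the mouse, had signals of 102 and 92.7 in HB, 32.6 and 237 in HP, 353 and 447 in AB, and 1035 and 867 in ET. On the negative arrays it had 22.7 and 29.4 in NHB, 28.2 and 10.96 in NHP, 20.8 and 11.5 in NAB, and 22.3 and 48.4 in NET. All negative arrays lay below the median of all values, AB and ET lay far above it, and the 2 HP arrays differed from each other several-fold. Sema3g was higher in AB than in NAB (log2 fold change 4.22, SE 0.68, adjusted p = 0.000297) and in ET than in NET (log2 fold change 4.60, SE 0.68, adjusted p = 0.000135), and higher in ET than in HB (log2 fold change 3.21, SE 0.68, adjusted p = 0.00351). In HP against NHP the difference was 2.01 (SE 0.68, adjusted p = 0.0347), a call lost without HP2 or NHP2, under quantile normalization, with a robust prior or with only the compared populations fitted (adjusted p = 0.0638 to 0.462). In HB against NHB it was 1.69 (SE 0.68, adjusted p = 0.0817), which missed the threshold.

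Sema3e, the ligand that binds Plxnd1 without a neuropilin, had signals of 55.7 and 32.9 in HB, 4.22 and 79.2 in HP, 151 and 160.2 in AB, and 72.4 and 86.9 in ET. The negative populations gave signals of 766 and 926 in NHB, 730.3 and 888 in NHP, 906 and 831 in NAB, and 784 and 883 in NET. The 8 negative arrays stayed within 730.3 and 926, and every positive array lay below 161. Sema3e was lower in HB than in NHB (log2 fold change -4.11, SE 0.60, adjusted p = 8.39e-05), in HP than in NHP (log2 fold change -4.78, SE 0.60, adjusted p = 1.07e-05) and in ET than in NET (log2 fold change -3.30, SE 0.60, adjusted p = 0.000765). In AB against NAB it was lower (log2 fold change -2.43, SE 0.60, adjusted p = 0.00753), a call lost without NAB1 or with a robust prior (adjusted p = 0.0565 to 0.0603). The 2 HP arrays, at 4.22 and 79.2, were far apart, and the higher level of AB than HP, 2.45 (SE 0.60, adjusted p = 0.0134), lost its call without HP1 or either AB array, with a robust prior, with only the compared populations fitted or with only positive arrays fitted (adjusted p = 0.0629 to 0.269). Receptor and ligand of this pair were thus called in opposite directions in HB, HP, AB and ET, each against its negative cells. Both calls were kept under every setting in HP and in ET.

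Sema3c, a neuropilin ligand of the developing heart and vessels, had signals of 21.9 and 52.6 in HB, 44.5 and 42.1 in HP, 233 and 322 in AB, and 190.5 and 208 in ET. In the negative cells it had 130.3 and 123 in NHB, 305 and 297 in NHP, 269.6 and 247 in NAB, and 437 and 339.6 in NET. HB and HP lay below the median of all values and AB and ET above it, AB at the level of NAB. Sema3c was lower in HP than in NHP (log2 fold change -2.64, SE 0.35, adjusted p = 2.36e-05), and lower in HB than in NHB (log2 fold change -1.71, SE 0.35, adjusted p = 0.00181), the second of these a call lost with only the compared populations fitted (adjusted p = 0.0651). Against HB it was higher in AB (log2 fold change 2.79, SE 0.35, adjusted p = 0.000107) and in ET (log2 fold change 2.34, SE 0.35, adjusted p = 0.000208), and AB stood above HP (log2 fold change 2.51, SE 0.35, adjusted p = 0.000165). AB held also more of the 6 pluripotency markers than HP (all 6 called higher), and the part of those cells was not tested.

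Sema3a, the neuropilin-1 ligand that repels axons, had signals of 212 and 247 in HB, 134 and 127 in HP, 128 and 99.05 in AB, and 252 and 209 in ET. Across the negative populations the signals were 26.7 and 30.3 in NHB, 35.6 and 43.2 in NHP, 76.3 and 87.5 in NAB, and 175 and 186 in NET. The negative cells were low at day 2.5 and close to the positive ones at day 6.5. Sema3a was higher in HB than in NHB (log2 fold change 2.77, SE 0.37, adjusted p = 3.99e-05) and in HP than in NHP (log2 fold change 1.59, SE 0.37, adjusted p = 0.00334), the second a call lost with only the compared populations fitted (adjusted p = 0.061). Sema3f, a neuropilin-2 ligand, had 418 and 561 in HB, 168 and 413 in HP, 324 and 319 in AB, and 432 and 319 in ET. The negative cells had 1269 and 1161 in NHB, 155 and 338 in NHP, 412 and 458 in NAB, and 393 and 710.2 in NET. It was highest in NHB, and its lower level in HB (log2 fold change -1.31, SE 0.38, adjusted p = 0.0181) lost its call without HB1 or either NHB array, under quantile normalization or with a robust prior (adjusted p = 0.0581 to 0.123).

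**Figure D3:**
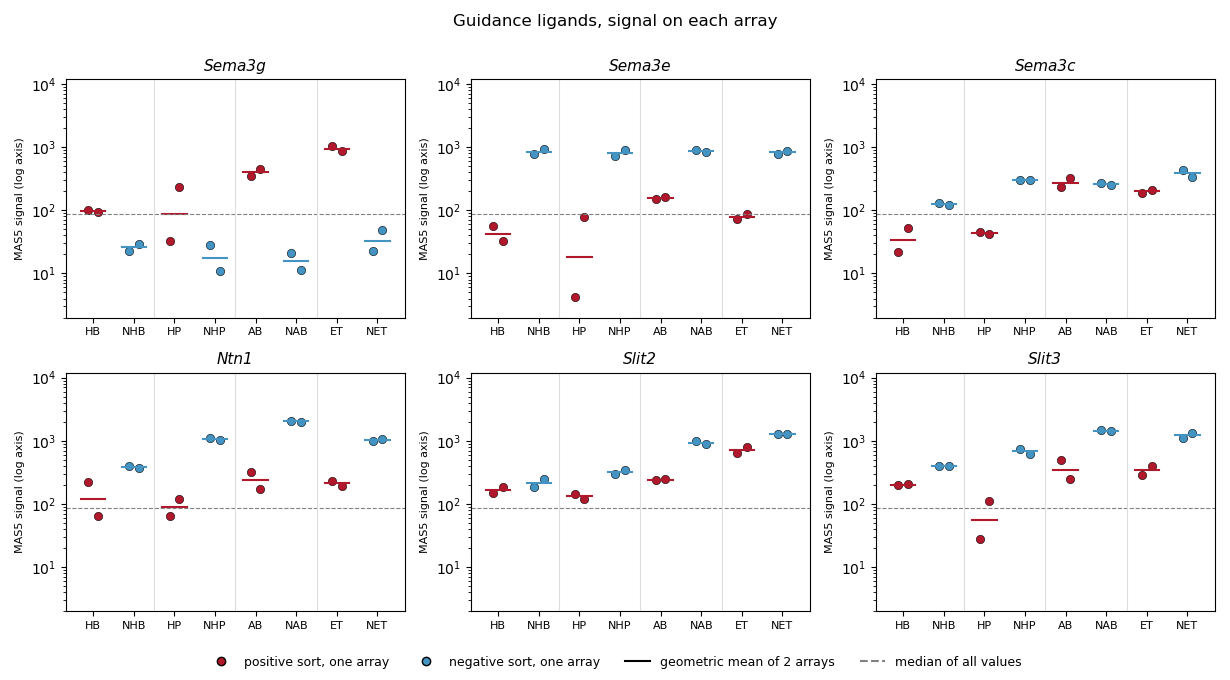
MAS5 signal (log axis) of 6 secreted guidance ligands on each array, with the populations on the horizontal axis and each positive population (red) left of the negative population (blue) of its day. Points are arrays, short lines geometric means of the 2 arrays, and the dashed line the median of all values, 85.8; Sema3g is the ligand here that stands above its negative cells, up to 1035 in ET, while Sema3e, Ntn1, Slit2 and Slit3 stand below theirs from day 3.5 on.

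Several membrane-bound class 4 semaphorins were lower in HB and in HP than in their negative cells. Sema4d (CD100), the ligand of Plxnb1, had signals of 405 and 425 in HB, 465 and 592 in HP, 859 and 691 in AB, and 551 and 687 in ET. Signals in the negative populations were 1381 and 1278 in NHB, 1014 and 942 in NHP, 643 and 631 in NAB, and 544 and 789.7 in NET. The differences in AB against NAB, 0.27 (SE 0.20, adjusted p = 0.377), and in ET against NET, -0.09 (SE 0.20, adjusted p = 0.81), missed the threshold. Sema4d was lower in HB than in NHB (log2 fold change -1.66, SE 0.20, adjusted p = 1.29e-05) and in HP than in NHP (log2 fold change -0.89, SE 0.20, adjusted p = 0.00229). AB stood above HB by 0.88 (SE 0.20, adjusted p = 0.0105), a call lost without HB1 or AB1, under median centring, with a robust prior or with only positive arrays fitted (adjusted p = 0.0515 to 0.0877).

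Sema4b, another member of class 4, had 112 and 49.3 in HB, 210.4 and 149 in HP, 233 and 472 in AB, and 156 and 353 in ET. Among negative cells the values were 547 and 566 in NHB, 559 and 604 in NHP, 439 and 488 in NAB, and 574 and 655 in NET. It was lower in HB than in NHB (log2 fold change -2.80, SE 0.39, adjusted p = 5.91e-05) and in HP than in NHP (log2 fold change -1.68, SE 0.39, adjusted p = 0.00331), and the AB arrays overlapped with those of NAB. The lower level in ET than in NET, -1.36 (SE 0.39, adjusted p = 0.0203), lost its call without ET1 or either NET array, with a robust prior or with only the compared populations fitted (adjusted p = 0.0508 to 0.243). Sema4b was higher in AB than in HB by 2.06 (SE 0.39, adjusted p = 0.00328), a call lost without HB2 or AB2 (adjusted p = 0.0525 to 0.0712). ET stood above HB by 1.58 (SE 0.39, adjusted p = 0.0102), a call lost without HB2 or ET2, with a robust prior, with only the compared populations fitted or with only positive arrays fitted (adjusted p = 0.0645 to 0.159).

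Sema4f was dim in positive cells, with 5.28 and 44.5 in HB, 4.11 and 1.24 in HP, 40.5 and 94.98 in AB, and 47.4 and 55.97 in ET. On the negative arrays it had 131 and 150.0 in NHB, 119 and 161 in NHP, 109.8 and 141 in NAB, and 68.1 and 98.2 in NET. Both HP arrays were at the floor of the scale, so that the size of its log2 fold change depends on the offset. Sema4f was lower in HP than in NHP (log2 fold change -4.08, SE 0.67, adjusted p = 0.000165). In HB against NHB it was lower (log2 fold change -2.61, SE 0.67, adjusted p = 0.00796), a call lost without HB1 or NHB2 or with only the compared populations fitted (adjusted p = 0.0613 to 0.103). AB exceeded HP by 3.0 (SE 0.67, adjusted p = 0.00746), a call lost without AB2, with only the compared populations fitted or with only positive arrays fitted (adjusted p = 0.0902 to 0.115).

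Sema4a, which also acts on immune cells, had 59.5 and 64.1 in HB, 75.3 and 2.21 in HP, 85.6 and 89.4 in AB, and 83.9 and 49.1 in ET. The negative populations gave signals of 137 and 131 in NHB, 139.8 and 132 in NHP, 66.2 and 39.7 in NAB, and 81.7 and 45.6 in NET. One HP array was at 2.21 and the other at 75.3, and its lower level in HP than in NHP (log2 fold change -2.46, SE 0.76, adjusted p = 0.0211) lost its call without HP2 or either NHP array, with a robust prior or with only the compared populations fitted (adjusted p = 0.0546 to 0.321). Sema4g had 259 and 263 in HB, 273 and 221 in HP, 287 and 291 in AB, and 431 and 369.8 in ET. In the negative cells it had 153 and 158 in NHB, 240.1 and 221 in NHP, 302 and 214 in NAB, and 253 and 255 in NET. The 2 HB arrays lay above both NHB arrays, but the difference (log2 fold change 0.73, SE 0.24, adjusted p = 0.0345) lost its call without either HB array or either NHB array (adjusted p = 0.0868 to 0.152).

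Classes 5 to 7 were mixed. Sema5a, a membrane semaphorin with thrombospondin repeats, had 93.6 and 42.1 in HB, 7.18 and 9.05 in HP, 29.6 and 69.01 in AB, and 64.4 and 141 in ET. Across the negative populations the signals were 122 and 119 in NHB, 138 and 90.1 in NHP, 306 and 284 in NAB, and 142 and 169 in NET. It was lower in HP than in NHP (log2 fold change -3.06, SE 0.53, adjusted p = 0.000281) and in AB than in NAB (log2 fold change -2.54, SE 0.53, adjusted p = 0.00238). HP stood below HB (log2 fold change -2.30, SE 0.53, adjusted p = 0.00947), a call lost without HB1, with an offset of 50, with only the compared populations fitted or with only positive arrays fitted (adjusted p = 0.0707 to 0.268). AB stood above HP by 1.88 (SE 0.53, adjusted p = 0.0327), a call lost without either HP array, AB2, either NHB array or either NAB array, with an offset of 50, with only the compared populations fitted or with only positive arrays fitted (adjusted p = 0.051 to 0.382).

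Sema6a, a ligand of the A plexins, had 136 and 126 in HB, 103 and 119 in HP, 365 and 315 in AB, and 208 and 231 in ET. The negative cells had 249.9 and 229.6 in NHB, 309 and 294 in NHP, 498 and 425 in NAB, and 358 and 384 in NET. Every positive population lay below its negative cells without overlap, and AB lay above the other positive populations. Sema6a was lower in HP than in NHP (log2 fold change -1.40, SE 0.23, adjusted p = 0.000179) and higher in AB than in HP (log2 fold change 1.57, SE 0.23, adjusted p = 0.000238). Its difference in HB against NHB was -0.84 (SE 0.23, adjusted p = 0.0125), a call lost without HB2 or either NHB array or under quantile normalization (adjusted p = 0.0572 to 0.122). In ET against NET it was -0.74 (SE 0.23, adjusted p = 0.0311), a call lost without either ET array, either NHB array or either NET array, under quantile normalization or with only the compared populations fitted (adjusted p = 0.0503 to 0.135). In AB against HB it was 1.33 (SE 0.23, adjusted p = 0.00164), a call lost with only positive arrays fitted (adjusted p = 0.0663). In ET against HB it was 0.72 (SE 0.23, adjusted p = 0.0438), a call lost without either HB array, either ET array, either NHB array, either NHP array or either NAB array, under quantile normalization, under median centring, with the replicate block, with only the compared populations fitted or with only positive arrays fitted (adjusted p = 0.052 to 0.325).

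Sema6d, a ligand of Plxna1 with a role in heart formation, had 1347 and 1320.0 in HB, 261 and 844 in HP, 1031 and 1018 in AB, and 1436 and 1350.2 in ET. Signals in the negative populations were 454 and 344 in NHB, 314 and 257 in NHP, 1337 and 1189 in NAB, and 989 and 987 in NET. It stood higher in HB than in NHB (log2 fold change 1.74, SE 0.33, adjusted p = 0.000982), and NAB and NET later held levels close to those of AB and ET. The 2 HP arrays were at 261 and 844, and the lower level of HP than HB, -1.49 (SE 0.33, adjusted p = 0.00776), lost its call without HB1 or HP1, with a robust prior or with only the compared populations fitted (adjusted p = 0.0509 to 0.0872). AB exceeded HP by 1.11 (SE 0.33, adjusted p = 0.044), a call lost without either HB array, HP1, either AB array, either ET array, either NHB array, either NHP array, either NAB array or either NET array, under median centring, with a robust prior, with only the compared populations fitted or with only positive arrays fitted (adjusted p = 0.0518 to 0.514).

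Sema7a, the ligand of Plxnc1, had 240.3 and 249 in HB, 185 and 254 in HP, 220.0 and 316 in AB, and 417 and 459 in ET. Among negative cells the values were 206 and 226 in NHB, 122 and 115 in NHP, 304 and 268 in NAB, and 207 and 249 in NET. ET held its highest values. Its higher level in HP than in NHP (log2 fold change 0.84, SE 0.26, adjusted p = 0.0204) lost its call without HP2 or either NHP array or with only the compared populations fitted (adjusted p = 0.0718 to 0.133). In ET against NET it was higher by 0.93 (SE 0.26, adjusted p = 0.0175), a call lost without ET2 or NET1, under median centring or with only the compared populations fitted (adjusted p = 0.0518 to 0.116). In ET against HB it was higher by 0.82 (SE 0.26, adjusted p = 0.0396), a call lost without either HB array, either ET array, either NHB array, either NHP array or either NAB array, under quantile normalization, under median centring, with a robust prior, with only the compared populations fitted or with only positive arrays fitted (adjusted p = 0.0526 to 0.224). Sema6b, another ligand of A plexins, had 180.2 and 326 in HB, 175 and 200.2 in HP, 11.97 and 225 in AB, and 228 and 113 in ET. On the negative arrays it had 70.4 and 68.4 in NHB, 20.5 and 45.7 in NHP, 55.9 and 97.7 in NAB, and 74.6 and 41.3 in NET. The 2 AB arrays were at 11.97 and 225, and its one call, higher in HP than in NHP (log2 fold change 2.38, SE 0.82, adjusted p = 0.037), was lost without either HP array or either NHP array or with a robust prior (adjusted p = 0.0598 to 0.219).

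Slit2 and Slit3, ligands of Robo1, were lower in positive cells from day 3.5 on. Slit2 had signals of 149 and 184 in HB, 142 and 121 in HP, 235 and 249 in AB, and 648 and 789 in ET. The negative populations gave signals of 183 and 246 in NHB, 302 and 343 in NHP, 979 and 900.4 in NAB, and 1262 and 1271 in NET. ET and NET held the highest signals of their sorts, and the arrays of HP, AB and ET lay below the negative arrays of their day. Slit2 was lower in HP than in NHP (log2 fold change -1.26, SE 0.21, adjusted p = 0.000245) and in AB than in NAB (log2 fold change -1.93, SE 0.21, adjusted p = 1e-05). In ET against NET the difference was -0.82 (SE 0.21, adjusted p = 0.0117), a call lost without ET1 or either NET array (adjusted p = 0.0556 to 0.0929). Within the positive cells it was higher in ET than in HB (log2 fold change 2.07, SE 0.21, adjusted p = 5.97e-06) and than in AB (log2 fold change 1.54, SE 0.21, adjusted p = 0.000437). AB stood above HP by 0.86 (SE 0.21, adjusted p = 0.0162), a call lost without HP2 or either AB array, with only the compared populations fitted or with only positive arrays fitted (adjusted p = 0.0513 to 0.354). ET carried also a summed smooth muscle and mesenchyme marker signal of 19347 to 20386, against 4583 to 5255 in AB, with 4 of the 6 markers called higher, and the part of those cells was not tested.

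Slit3 had signals of 197 and 208 in HB, 28.3 and 113 in HP, 496 and 248 in AB, and 291 and 399.7 in ET. In the negative cells it had 395 and 401 in NHB, 754 and 616 in NHP, 1476 and 1431 in NAB, and 1118 and 1339 in NET. HP was the lowest population, and no positive array reached the negative arrays of its day. Slit3 was lower in HP than in NHP (log2 fold change -3.43, SE 0.41, adjusted p = 6.68e-06), in AB than in NAB (log2 fold change -2.03, SE 0.41, adjusted p = 0.00182) and in ET than in NET (log2 fold change -1.82, SE 0.41, adjusted p = 0.00408). HP stood below HB (log2 fold change -1.71, SE 0.41, adjusted p = 0.012), a call lost without either HB array or HP1, with a robust prior, with only the compared populations fitted or with only positive arrays fitted (adjusted p = 0.0576 to 0.255). AB exceeded HP by 2.48 (SE 0.41, adjusted p = 0.000672), a call lost with only the compared populations fitted (adjusted p = 0.0594).

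Slit1, the Slit best known from the nervous system, had 117 and 37.6 in HB, 60.4 and 23.1 in HP, 51.1 and 98.4 in AB, and 73.5 and 20.2 in ET. Across the negative populations the signals were 18.9 and 4.08 in NHB, 29.5 and 8.63 in NHP, 119 and 90.9 in NAB, and 258 and 222 in NET. It was low at day 2.5 in negative cells and reached its highest values in NET. The higher level in HB than in NHB, 2.21 (SE 0.75, adjusted p = 0.0407), lost its call without HB1, NHB2, either NAB array or either NET array, under quantile normalization, with an offset of 50, with a robust prior or with only the compared populations fitted (adjusted p = 0.0505 to 0.296). The lower level in ET than in NET, -2.42 (SE 0.75, adjusted p = 0.0315), lost its call without ET2 or either NET array, with an offset of 1 or with a robust prior (adjusted p = 0.0559 to 0.254).

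Ntn1, the netrin that attracts axons through Dcc and repels them through Unc5 receptors, was among the members with the widest gaps. It had signals of 222 and 64.3 in HB, 65.2 and 122 in HP, 323 and 172 in AB, and 233 and 196 in ET. The negative cells had 395 and 372 in NHB, 1110.3 and 1026 in NHP, 2052 and 2001 in NAB, and 1009 and 1071 in NET. No positive array exceeded 323, and the arrays of NHP, NAB and NET lay between 1009 and 2052. Ntn1 was lower in HP than in NHP (log2 fold change -3.49, SE 0.41, adjusted p = 5.17e-06), in AB than in NAB (log2 fold change -3.07, SE 0.41, adjusted p = 5.23e-05) and in ET than in NET (log2 fold change -2.25, SE 0.41, adjusted p = 0.000769). In HB against NHB the difference was -1.62 (SE 0.41, adjusted p = 0.00729), a call lost without HB2 or NHB1, with a robust prior or with only the compared populations fitted (adjusted p = 0.0506 to 0.148). AB stood above HP by 1.34 (SE 0.41, adjusted p = 0.0463), a call lost without HP1, AB1, either ET array, either NHB array, either NHP array, either NAB array or either NET array, under quantile normalization, under median centring, with an offset of 50, with a robust prior, with only the compared populations fitted or with only positive arrays fitted (adjusted p = 0.051 to 0.334).

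Ntn5, a less studied netrin, stood out in 1 population. It had 194 and 154 in HB, 9.75 and 21.1 in HP, 19.6 and 76.9 in AB, and 16.5 and 19.5 in ET. Signals in the negative populations were 9.63 and 14.8 in NHB, 28.1 and 12.5 in NHP, 8.79 and 57.2 in NAB, and 14.3 and 10.8 in NET. Only the HB arrays lay above the median of all values, and it was higher in HB than in NHB (log2 fold change 3.31, SE 0.78, adjusted p = 0.00464). Against HB it was lower in HP (log2 fold change -3.11, SE 0.78, adjusted p = 0.0158), a call lost without either HB array or HP1, with only the compared populations fitted or with only positive arrays fitted (adjusted p = 0.0544 to 0.11). In ET against HB it was -2.90 (SE 0.78, adjusted p = 0.0167), a call lost without either HB array or either ET array or with only positive arrays fitted (adjusted p = 0.0521 to 0.0831).

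Among the positive populations, the guidance genes called were mainly lower in HP and mainly higher in AB and in ET than in HB. In HP against HB, 2 members were higher and 9 lower, where 7.04% and 7.59% of all genes were. The 11 calls became 4 with only the compared populations fitted and 7 with only positive arrays fitted. The higher ones were the receptors Plxnc1 and Unc5c, and Robo1 and Unc5b kept their lower call under every setting. In AB against HB, 6 were higher and 1 lower, beside 7.21% and 3.92% of all genes, and in ET against HB 9 were higher and 2 lower, beside 12.8% and 8.86%. Plxnc1 and Sema3c kept their higher call in both, Sema3g and Slit2 in ET, and Robo1 its lower call in ET. The count in ET moved with the scaling, to 5 higher and 3 lower both under quantile normalization and under median centring, and the median of all probe sets then moved to -0.04 and -0.12, against 0.11 as deposited. Of all called probe sets, 63.1% were higher in AB and 60.6% in ET, and 47.6% and 38.1% under median centring. The ET count was 7 without either HB array and 6 without either ET array. HB served in all 3 contrasts, so they share its arrays.

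Between ET and AB, Slit2 was the one member called, higher in ET, where 4.23% of all genes were higher and 4% lower. By an unadjusted p under 0.05 there were 6 of the 46 members, beside 4379 of all 18193 genes. The members called were 2 without CD41 positive array HP1 or HP2 or without AB2. Of all called probe sets 54.8% were higher, and 37.6% under median centring.

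AB and HP, both of day 3.5, differed more widely. In AB 13 members were higher and 2 lower than in HP, beside 9.59% and 5.07% of all genes, and the median log2 fold change was 0.80 over the members and 0.02 over all genes. The call was kept under every setting for Plxnb2, Sema3c, Sema6a and Unc5b, all higher in AB, and for Unc5c, lower in AB. With only the positive arrays fitted, 7 were higher and 2 lower. Of the marker lists, 6 of 6 pluripotency, 5 of 8 neuroectoderm, 3 of 6 smooth muscle and mesenchyme, 2 of 4 cardiac muscle and 2 of 5 endoderm markers were also called higher in AB, and all 7 blood markers were called lower. The summed signal was 5818 to 6751 in AB and 726 to 1646 in HP for neuroectoderm, 4583 to 5255 in AB and 765 to 1301 in HP for smooth muscle and mesenchyme, and 1261 to 1302 in AB and 405 to 514 in HP for cardiac muscle. The part of those cells in the 13 calls was not tested. The negative cells of the CD41 and CD144 sorts of day 3.5 differed as well. Their pluripotency sum was 37318 to 40055 in NHP and 19235 to 21256 in NAB. Their early mesoderm sum was 6281 to 6477 in NHP and 18411 to 19153 in NAB. Kdr (VEGF-R2) averaged 74.3 in NHP and 870 in NAB. Slit2 averaged 322 in NHP and 940 in NAB, and Sema6d 285 and 1263, while Sema3e averaged 809 and 869. The part of a difference between these 2 sorts in AB against HP was not tested.

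A difference between positive and negative cells that already existed at day 2.5 does not show a change with differentiation, so the change since day 2.5 was compared between the sorts. This difference of changes was above 0 for 3 members and below 0 for 4 in CD41 cells at day 3.5, beside 3.73% and 4.01% of all genes. In CD144 cells it was above 0 for 5 and below 0 for 5 at day 3.5, beside 4.75% and 3.59%, and above 0 for 4 and below 0 for 4 at day 6.5, beside 3.91% and 3.31%. Plxnd1 and Plxnc1 were above 0 in all 3, by 2.69, 2.48 and 2.68 for Plxnd1 and by 3.04, 2.12 and 2.82 for Plxnc1. Plxnd1 reached this by a lower signal in the negative cells after day 2.5, and Plxnc1 by a higher signal in the positive cells. The cells of day 2.5 were sorted by VEGF-R2 and the later ones by CD41 or CD144, so a change here compares different sorts. The summed vessel endothelial signal was 1961 to 2020 in NHB, 697 to 783 in NHP, 284 to 304 in NAB and 506 to 565 in NET. The part of the sorting marker in these changes was not tested. At day 3.5 in CD144 cells, 58.5% of all called probe sets were above 0, and 47.2% under median centring, where 4 members were above and 5 below 0.

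**Figure D4:**
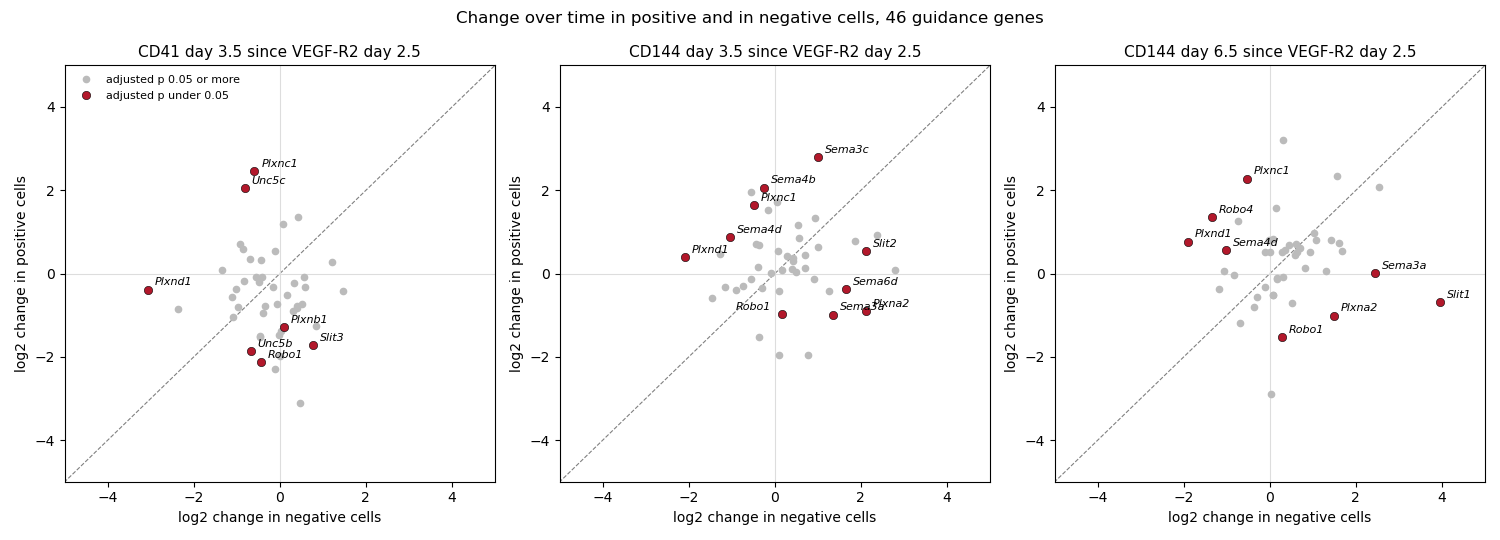
Log2 change of the 46 guidance genes since day 2.5 in positive cells (vertical axis) and in negative cells (horizontal axis), for CD41 cells at day 3.5 and CD144 cells at days 3.5 and 6.5, 1 point per gene. Points off the dashed line changed unequally, and named red points have an adjusted p under 0.05 for the difference. Plxnd1 lies left of the line through a lower signal in the later negative cells. Plxnc1 lies above it through a higher signal in the later positive cells. The cells of day 2.5 were sorted by VEGF-R2 and the later ones by CD41 or CD144.

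Coreceptors and intracellular partners of these families were counted from a list of 38 genes. These partner counts were made in the fit described and not under the alternatives. In HB against NHB 11 of the 38 were called higher and 4 lower, beside 16% and 13.7% of all genes. In HP against NHP 7 were higher and 12 lower, beside 19.2% and 17.2%. In AB against NAB 9 were higher and 3 lower, beside 13.7% and 10.3%, and in ET against NET 8 were higher and 2 lower, beside 13.4% and 11.9%. Nrp1 and Nrp2, the neuropilins that class 3 semaphorins bind, were higher in the positive cells of every day. Nrp1 was higher by 1.85 (SE 0.21, adjusted p = 7.88e-06) in HB, 3.20 (SE 0.21, adjusted p = 7.12e-09) in HP, 1.29 (SE 0.21, adjusted p = 0.000296) in AB and 1.14 (SE 0.21, adjusted p = 0.000824) in ET. Nrp2 was higher by 3.01 (SE 0.17, adjusted p = 9.76e-09) in HB, 2.83 (SE 0.17, adjusted p = 3.96e-09) in HP, 2.37 (SE 0.17, adjusted p = 1.31e-07) in AB and 2.13 (SE 0.17, adjusted p = 3.48e-07) in ET. Neo1, the netrin receptor neogenin, was lower than in the negative cells, with log2 fold changes of -1.33 (SE 0.28, adjusted p = 0.00196) in HB, -2.56 (SE 0.28, adjusted p = 2.46e-06) in HP, -1.03 (SE 0.28, adjusted p = 0.0138) in AB and -1.10 (SE 0.28, adjusted p = 0.00946) in ET.

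Among the positive populations, 14 of the 38 partners were called lower in HP than in HB, beside 7.59% of all genes, and 17 higher in AB than in HP, beside 9.59%. In AB against HB 4 were higher and 5 lower, beside 7.21% and 3.92%. In ET against HB 8 were higher and 6 lower, beside 12.8% and 8.86%, and in ET against AB 5 were higher and 1 lower, beside 4.23% and 4%. Nrp2 was lower than in HB, with log2 fold changes of -2.31 (SE 0.17, adjusted p = 2.29e-07) in HP, -1.45 (SE 0.17, adjusted p = 5.99e-05) in AB and -1.41 (SE 0.17, adjusted p = 3.28e-05) in ET. Dpysl2 (Crmp2), which carries semaphorin signals to the cytoskeleton, was higher in ET than in HB by 0.70 (SE 0.14, adjusted p = 0.00256). Rras, a small GTPase on which plexins act, was higher in AB than in HB by 1.19 (SE 0.26, adjusted p = 0.00894) and in ET than in HB by 1.43 (SE 0.26, adjusted p = 0.00102). For the differences of changes since day 2.5, 1 partner was above and 6 below 0 in CD41 cells, beside 3.73% and 4.01% of all genes. In CD144 cells 3 were above and 5 below 0 at day 3.5, beside 4.75% and 3.59%, and 3 were below 0 at day 6.5, beside 3.31%.

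A further 14 of the 46 members are not described above. Ntn4, Ntng1, Plxna4, Robo3, Sema3b, Sema4c, Sema5b and Sema6c exceeded the median of all values in their highest population. Limma called none of them in the 12 comparisons by the probe set that stands for each gene. Of these 8, 3 had an unadjusted p under 0.05 in a comparison, and the share of such genes over all genes was not counted. Their other probe sets can behave differently. The other probe set of Robo3 had 93.1 and 71.9 in ET, below the 250 and 282 in NET. Ntn3, Ntng2, Plxnb3, Robo2, Sema3d and Unc5d stayed at or below the median of all values in every population, again by the probe set used. There a signal is close to background and the arrays say little about the gene. The 32 members described had 144 calls over the 12 comparisons. Under the alternatives that kept the probe set of each gene, 78 were kept throughout and none reversed. By another probe set, Unc5b in ET against NET and Plxnc1 in AB against NAB were called in the other direction.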

How the data were processed

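RNA of 8 sorted populations, 2 arrays each, was measured on Affymetrix mouse genome arrays. The deposited values are linear MAS5 intensity signals, computed by the authors and brought on each array to a mean of 500 trimmed at 2% on each side; no probe-level values were used here, and the software version is not given in the sources used here. The study's own lists came from dChip and were not used. Embryo arrays were not analysed. Populations were taken from the sample titles.

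Of 45101 probe sets, 64 control sets were left out and 45037 tested, of which 34945 carry 1 gene symbol, 932 several and 9160 none. After 6 was added and the log2 taken, all 16 arrays were fitted in limma 3.58.1 under R 4.3.3 with 8 populations and a trend, with Benjamini-Hochberg adjustment over all probe sets and a threshold of 0.05. Each gene is its probe set of highest mean. Members were symbols of the named families, all 46 found in RefSeq (GRCm38.p6). Members and lists were chosen with earlier results of these arrays known. A member is described in full if called at least 1 time among 12 comparisons and above the median of all values in its highest population; the others are counted. The study's criterion, a dChip lower bound, needs probe-level values, so limma stood in. Cell type markers (50 of 52 measured, in 8 lists) were summed per array. The fit was tested on simulated data. Alternatives were quantile normalization, median centring, offsets of 1 and 50, leaving out probe sets under a mean signal of 100 in every population, a robust prior without trend, a replicate block, fits of fewer arrays, other probe sets per gene and leaving out each array. Other probe sets per gene were applied to the counts only, so a call kept under every setting was not tried on them. The replicate block was not used, since same-numbered arrays did not deviate together. Precision is limited by the 2 arrays per population. Plots were made in Python 3.11.15 with matplotlib 3.10.9.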

Additional observations from a re-analysis of the deposited data

Results flagged for a closer look

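The results below are members whose log2 signal changed differently in positive and in negative cells since day 2.5, by limma's test of the difference of changes. All values are on the log2(signal + 6) scale, with HB and NHB as the start, and an adjusted p over all probe sets. HB and NHB were sorted by VEGF-R2 and the later cells by CD41 or CD144, so a change compares different sorts.

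Of the plexins, Plxnd1 changed by -0.38 in the positive and by -3.07 in the negative cells, a difference of 2.69 (SE 0.39, adjusted p = 0.000464) for CD41 cells at day 3.5. It changed by 0.40 in the positive and by -2.09 in the negative cells, a difference of 2.48 (SE 0.39, adjusted p = 0.00079) for CD144 cells at day 3.5. It changed by 0.77 in the positive and by -1.91 in the negative cells, a difference of 2.68 (SE 0.39, adjusted p = 0.000573) for CD144 cells at day 6.5. Plxnc1 changed by 2.45 in the positive and by -0.59 in the negative cells, a difference of 3.04 (SE 0.32, adjusted p = 1.67e-05) for CD41 cells. It changed by 1.64 in the positive and by -0.48 in the negative cells, a difference of 2.12 (SE 0.32, adjusted p = 0.000483) for CD144 cells at day 3.5, where a further probe set of the gene went the other way between the sorts. At day 6.5 it changed by 2.28 in the positive and by -0.54 in the negative cells, a difference of 2.82 (SE 0.32, adjusted p = 4.44e-05). Plxna2 changed by -0.90 in the positive and by 2.12 in the negative cells, a difference of -3.02 (SE 0.49, adjusted p = 0.00103) for CD144 cells at day 3.5. It changed by -1.01 in the positive and by 1.48 in the negative cells, a difference of -2.49 (SE 0.49, adjusted p = 0.00648) at day 6.5, a call lost without NHB2 (adjusted p = 0.0521). Plxnb1 changed by -1.28 in the positive and by 0.09 in the negative cells, a difference of -1.37 (SE 0.33, adjusted p = 0.0216) for CD41 cells, a call lost without HB1, either NHB array or either NHP array or with a robust prior (adjusted p = 0.0516 to 0.131).

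Of the Robo and Unc5 receptors, Robo1 changed by -2.12 in the positive and by -0.44 in the negative cells, a difference of -1.68 (SE 0.30, adjusted p = 0.00228) for CD41 cells. For CD144 cells at day 3.5 Robo1 changed by -0.98 in the positive and by 0.17 in the negative cells, a difference of -1.15 (SE 0.30, adjusted p = 0.0293), a call lost without HB1, either AB array, either NHB array or either NAB array or with a robust prior (adjusted p = 0.0584 to 0.143). At day 6.5 Robo1 changed by -1.52 in the positive and by 0.27 in the negative cells, a difference of -1.79 (SE 0.30, adjusted p = 0.00152). Robo4 changed by 1.36 in the positive and by -1.36 in the negative cells, a difference of 2.71 (SE 0.54, adjusted p = 0.00677) for CD144 cells at day 6.5. Unc5c changed by 2.05 in the positive and by -0.82 in the negative cells, a difference of 2.87 (SE 0.34, adjusted p = 5.52e-05) for CD41 cells. Unc5b changed by -1.86 in the positive and by -0.68 in the negative cells, a difference of -1.18 (SE 0.30, adjusted p = 0.029) for CD41 cells, a call lost without HB2, HP1, either NHB array or either NHP array, under median centring or with a robust prior (adjusted p = 0.0757 to 0.185).

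Of the semaphorins, Sema4d changed by 0.88 in the positive and by -1.05 in the negative cells, a difference of 1.94 (SE 0.28, adjusted p = 0.00033) for CD144 cells at day 3.5. At day 6.5 Sema4d changed by 0.56 in the positive and by -1.01 in the negative cells, a difference of 1.57 (SE 0.28, adjusted p = 0.00279). Both differences are of the probe set that stands for Sema4d, and a dimmer one lay lower in AB than in NAB without overlap. Sema3a changed by -0.98 in the positive and by 1.35 in the negative cells, a difference of -2.33 (SE 0.52, adjusted p = 0.0127) for CD144 cells at day 3.5, a call lost without NHB1 or NAB2 (adjusted p = 0.06 to 0.07). At day 6.5 Sema3a changed by 0.0026 in the positive and by 2.43 in the negative cells, a difference of -2.43 (SE 0.52, adjusted p = 0.0112), a call lost without NHB1 (adjusted p = 0.0557). Sema3c changed by 2.79 in the positive and by 1.0 in the negative cells, a difference of 1.80 (SE 0.50, adjusted p = 0.0456) for CD144 cells at day 3.5, a call lost without HB1, either AB array, either ET array, either NHB array, either NHP array, either NAB array or either NET array, under median centring, with an offset of 50, with a robust prior, with the replicate block or with only the compared populations fitted (adjusted p = 0.0505 to 0.176). Sema4b changed by 2.06 in the positive and by -0.26 in the negative cells, a difference of 2.33 (SE 0.55, adjusted p = 0.0183) for the same cells, a call lost without HB2, AB2, either NHB array or either NAB array or with a robust prior (adjusted p = 0.0601 to 0.117). Sema6d changed by -0.38 in the positive and by 1.66 in the negative cells, a difference of -2.04 (SE 0.47, adjusted p = 0.0155) there too, a call lost without HB1, AB2, NHB2 or NAB1 or with a robust prior (adjusted p = 0.0514 to 0.128).

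Of the Slits, Slit2 changed by 0.53 in the positive and by 2.11 in the negative cells, a difference of -1.58 (SE 0.30, adjusted p = 0.00393) for CD144 cells at day 3.5. Slit1 changed by -0.68 in the positive and by 3.95 in the negative cells, a difference of -4.64 (SE 1.07, adjusted p = 0.017) for CD144 cells at day 6.5, a call lost without HB1, ET2, NHB2 or either NET array or with a robust prior (adjusted p = 0.0512 to 0.1). Slit3 changed by -1.71 in the positive and by 0.77 in the negative cells, a difference of -2.48 (SE 0.58, adjusted p = 0.018) for CD41 cells, a call lost without either HB array, either NHB array or NHP1, under median centring, with a robust prior or with only the compared populations fitted (adjusted p = 0.0509 to 0.135).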

How the results depend on the processing

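Of 125 counts of called members under settings other than leaving out an array, 109 stayed within 1.5 times the count reported and 16 did not. HP against HB gave 4 calls with only the compared populations fitted and 7 with only positive arrays fitted, beside 11. AB against HB gave 4 with only positive arrays and 4 with the most variable probe set, beside 7. ET against HB gave 6 with only positive arrays, beside 11. ET against AB gave 2 with a robust prior without trend, 2 with only the compared populations, 2 with the most variable probe set and 3 with any probe set of the gene, beside 1. AB against HP gave 6 with only the compared populations and 9 with only positive arrays, beside 15. The difference of changes gave, with a robust prior and with the most variable probe set, 4 and 4 in CD41 cells beside 7, and 6 and 5 in CD144 cells at day 3.5 beside 10. At day 6.5 it gave 5 with the most variable probe set, beside 8. The fits of only positive arrays for ET against AB and for AB against HP were added after seeing the data.

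Leaving out each array in turn gave 11 to 21 calls in HB against NHB, 19 to 26 in HP against NHP, 11 to 16 in AB against NAB and 10 to 17 in ET against NET. It gave 8 to 12 in HP against HB, 5 to 9 in AB against HB, 6 to 14 in ET against HB, 1 to 2 in ET against AB and 10 to 16 in AB against HP. The differences of changes gave 4 to 10 in CD41 cells, 6 to 12 in CD144 cells at day 3.5 and 6 to 11 at day 6.5. Counts moved by over 1.5 times without NHB2 in HB against NHB (11) and without either NET array in ET against NET (10 each). In ET against HB the count was 7 without either HB array and 6 without either ET array, and in ET against AB 2 without HP1, HP2 or AB2. They moved as far in the CD41 difference of changes without either NHB array or NHP1 (4 each), and in the CD144 difference at day 3.5 without either NHB or either NAB array (6 each).

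Of the 144 calls of named members, 66 were lost under 1 or more settings and none reversed, with the probe set of each gene kept. Another probe set was called in the other direction for Unc5b in ET against NET and for Plxnc1 in AB against NAB. The replicate numbers did not pair the arrays: deviations of same-numbered arrays correlated by -0.17 to 0.17 over 28 pairs of populations, above 0.1 in 3. With the replicate block the counts were 18, 26, 14 and 16 between the sorts, 11, 7, 10, 1 and 15 among positive populations in the order above, and 7, 9 and 8 for the differences of changes, and it lost only Sema6a in ET against HB (adjusted p = 0.052) and Sema3c in CD144 cells at day 3.5 (adjusted p = 0.0511). In all, 6 members lay at or below the median of all values, where signal over background limits any statement, and 2 arrays per population limit the precision.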
